A study of Mus musculus with 6 samples.

Results

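Glycolysis turns glucose into pyruvate and lactate, and many of its enzymes are encoded by several genes whose products, the isoenzymes, differ in kinetics and in the tissues that use them. When oxygen falls, hypoxia-inducible factors (HIF) escape degradation and raise the transcription of glycolytic enzymes, of pyruvate dehydrogenase kinases, which keep pyruvate out of mitochondria, and of genes of cell stress. Endothelial cells are known for making most of their energy by glycolysis, and the embryo of this age lives in little oxygen. Described here are 41 genes of these processes: 20 of glycolytic enzymes, 10 that control glycolysis and the entry of pyruvate into mitochondria, and 11 of oxygen sensing and its response. They were chosen by name, with earlier results of these data known. Of these genes, 38 had a probe set annotated to that gene alone, out of 18193 genes measured in this way. Gpi1 (glucose-6-phosphate isomerase) and Pfkfb1 had no such probe set, and the 3 probe sets of Bnip3l are shared with a pseudogene, so that these genes were not analysed here.

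RNA was measured on 6 Affymetrix arrays in cells of the mouse embryo at day 9.5, with 2 arrays of independent biological replicates from each of 3 sources: the yolk sac, the heart tube and the caudal-half tissue, whose cells are called yolk sac, heart and caudal cells here. All animals were of mixed background, the sample codes carry the letters Wt, and no allele, transgene or agent is named for any group. The sort kept CD31+ cells, which carry a surface protein of endothelium, and removed CD41+ and CD45+ blood cells; it enriches endothelium without making it pure. How many embryos were pooled is not stated in the labels. Levels are the natural log of the deposited RMA signal, read as RMA log2 values; if that signal is linear instead, differences grow by a factor of 1.44 and the tests stay as they are. A level describes one gene across arrays and is not compared between genes.

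Replicate arrays correlated at r = 0.981 to 0.986 over all probe sets without controls, and those from unlike sources at 0.946 to 0.969. The 10 endothelial marker genes were above the range of the bacterial control probe sets (1.33 to 4.03), used here to describe weak signals, in all tissues, with a summed level of 93.0 to 95.2 in heart cells, 102 to 103 in caudal cells and 104 in yolk sac cells. Markers of other cells differed between the tissues. The 10 visceral endoderm markers (the epithelium that covers yolk sac vessels) summed to 43.5 to 43.6 in heart cells, 48.6 to 49.8 in caudal cells and 95.1 to 95.6 in yolk sac cells, with Apob and Amn within the control range in both embryonic tissues. The 9 erythroid markers summed to 46.9 to 49.6, 50.5 to 53.4 and 59.7 to 61.1 in the same order, with Hba-a1, Rhag and Gata1 within the control range throughout. The 13 cardiomyocyte markers summed to 86.4 to 86.9 in heart cells, 64.4 to 65.1 in caudal cells and 55.9 to 60.3 in yolk sac cells, with Nkx2-5 and Ryr2 within the control range throughout. The 10 mesenchymal markers summed to 72.8 to 72.9, 57.7 to 58.0 and 72.1 to 74.0, and 6 macrophage markers to 24.3 to 25.5, 23.7 to 23.9 and 30.0 to 30.4. Of the macrophage genes, Ptprc, Adgre1 and Fcgr1 were within the control range throughout, and Mrc1 read 11.40 and 11.31 in yolk sac cells against at most 6.64 elsewhere, whereas Cd68 read 6.23 and 5.57 there and 6.26 to 7.02 elsewhere. The 7 epithelial markers summed to 30.7 to 30.8, 42.7 to 44.4 and 47.0 to 47.6, and the 7 neural ones to 33.9 to 34.3, 37.2 to 37.3 and 31.7 to 32.5. Control probe sets for Gapdh compare the 3' with the 5' end of the transcript, which follows RNA integrity; that gap was 1.88 and 1.98 in heart cells, 1.67 and 1.58 in caudal cells, and 2.04 and 1.81 in yolk sac cells.

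**Figure D1:**
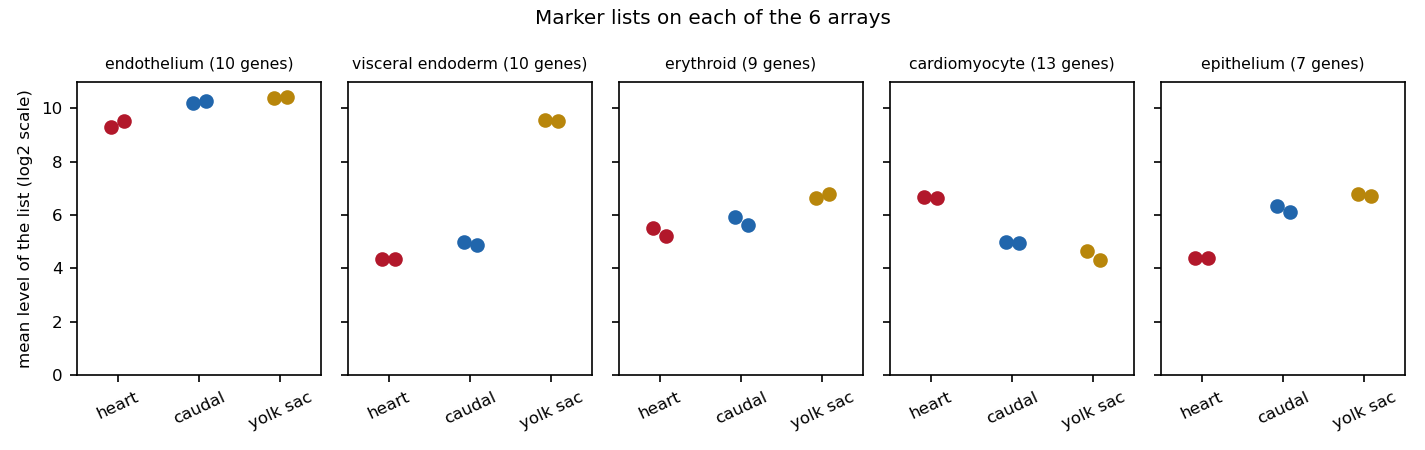
Mean level of each marker list (vertical axis, log2 scale) on each of the 6 arrays, 2 points per tissue. Visceral endoderm markers stand high in yolk sac cells alone, cardiomyocyte markers are highest in heart cells, and endothelial markers lie above 9 on every array.

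HIF binds DNA at a short core motif, ACGTG or GCGTG. The promoters of several members that were higher in caudal than in yolk sac cells are shown, chosen because the motif recurs in them. The capitals mark ACGTG or GCGTG, or CACGT or CACGC where the motif lies on the other strand; each sequence is the 250 bases before the start of the gene, read 5′ to 3′ along the strand of the gene, from RefSeq on GRCm38.p6. Hk2 (hexokinase, chr6:82774455-82774704, minus strand), Pfkp (phosphofructokinase, chr13:6648772-6649021, minus), Pgk1 (phosphoglycerate kinase, chrX:106186850-106187099, plus) and Bnip3 (a mitophagy receptor, chr7:138909507-138909756, minus) were all higher in caudal cells than in yolk sac cells. Ldhb (the B subunit of lactate dehydrogenase, chr6:142507958-142508207, minus) is given beside them because it was lower in caudal than in heart cells.
Hk2: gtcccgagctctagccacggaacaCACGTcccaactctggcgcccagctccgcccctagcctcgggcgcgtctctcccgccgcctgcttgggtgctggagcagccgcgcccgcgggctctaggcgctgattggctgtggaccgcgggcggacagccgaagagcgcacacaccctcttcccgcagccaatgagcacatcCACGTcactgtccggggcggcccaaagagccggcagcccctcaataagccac
Pfkp: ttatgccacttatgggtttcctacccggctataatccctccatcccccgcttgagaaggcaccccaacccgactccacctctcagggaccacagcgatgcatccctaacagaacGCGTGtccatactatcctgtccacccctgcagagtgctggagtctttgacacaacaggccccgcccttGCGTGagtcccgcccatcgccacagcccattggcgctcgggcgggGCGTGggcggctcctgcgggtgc
Pgk1: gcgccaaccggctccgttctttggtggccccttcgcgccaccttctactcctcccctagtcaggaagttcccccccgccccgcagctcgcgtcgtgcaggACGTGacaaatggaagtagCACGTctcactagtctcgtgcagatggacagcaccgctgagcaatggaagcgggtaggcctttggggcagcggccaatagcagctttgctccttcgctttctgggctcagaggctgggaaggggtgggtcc
Bnip3: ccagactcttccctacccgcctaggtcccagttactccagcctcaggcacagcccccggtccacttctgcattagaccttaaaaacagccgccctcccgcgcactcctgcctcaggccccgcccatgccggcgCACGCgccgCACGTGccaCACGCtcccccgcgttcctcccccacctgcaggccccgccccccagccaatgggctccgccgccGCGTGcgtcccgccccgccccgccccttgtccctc
Ldhb: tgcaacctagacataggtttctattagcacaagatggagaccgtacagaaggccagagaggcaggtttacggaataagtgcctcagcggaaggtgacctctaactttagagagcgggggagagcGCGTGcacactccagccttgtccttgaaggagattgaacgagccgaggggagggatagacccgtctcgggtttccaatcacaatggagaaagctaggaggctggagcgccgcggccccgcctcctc
These stretches held 2 separate sites in Hk2, 3 in Pfkp, 2 in Pgk1, 4 in Bnip3 and 1 in Ldhb. Because the motif guided the choice, these counts cannot be used to compare the genes. Pkm and Pdk1, also higher in caudal than in yolk sac cells, held at most 1 site in such a stretch. Hif1a, which passed no test, held 2. In Bnip3, 1 of the sites is CACGTG, which reads as the motif on both strands and is also the E-box bound by other factors. Counted over the full windows of 300 bases, which add 50 bases after the start, 31 of the 37 measured members with a window (83.8%) held the motif in at least 1 window, beside 59.3% of the 14452 measured genes with a window and 46.7% of all 27025 genes with a window. With 2 or more sites the shares were 56.8% and 27.9% of the same genes. For each gene the GC content of its window richest in GC was taken. The median over genes was 63.3% in members and 59.7% in all these genes, which bears on how often a motif containing CG occurs. Of the 9 members higher in caudal cells than in yolk sac cells, 8 held the motif, and Tpi1 did not. A match is a description of letters and not a bound site; Epas1 had no entry.

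Across the 3 tissues, the members were most often highest in caudal cells. For 19 of 38 members both caudal arrays lay above the other 4 arrays, where 13.9% of all genes did so, and for 2 members (Ldhb and Pdk2) both lay below them, beside 8.72%. Among the 19 were 12 of the 19 measured glycolytic enzymes: Hk1, Hk2, Pfkl, Pfkp, Aldoa, Tpi1, Pgk1, Pgam1, Bpgm, Eno3, Pkm and Ldha. These positions are those of the chosen probe set of each gene. For heart minus caudal, 1 of 3 probe sets of Bpgm and 2 of 3 of Pfkl had the sign of the chosen one, itself counted. For caudal minus yolk sac, 1 of 2 of Hk1 did. So did 2 of 4 of Hif1a for heart minus caudal, and 1 of 2 of Hk3 in each comparison with yolk sac cells. In yolk sac cells, both arrays lay below the other 4 for 12 members (31.6%; 15.0% of all genes) and above them for 3 (Hk3, Epas1 and Arnt; 7.89%, beside 16.2% of all genes). In heart cells, 5 members stood above (Ldhb, Pdk4, Hif1a, Vhl and Ddit4; 13.2%, beside 10.5% of all genes) and 2 below (Pfkp and Epas1; 5.26%, beside 17.0%). In sorted bulk samples, fewer cells of a type and less RNA per cell cannot be told apart.

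**Figure D2:**
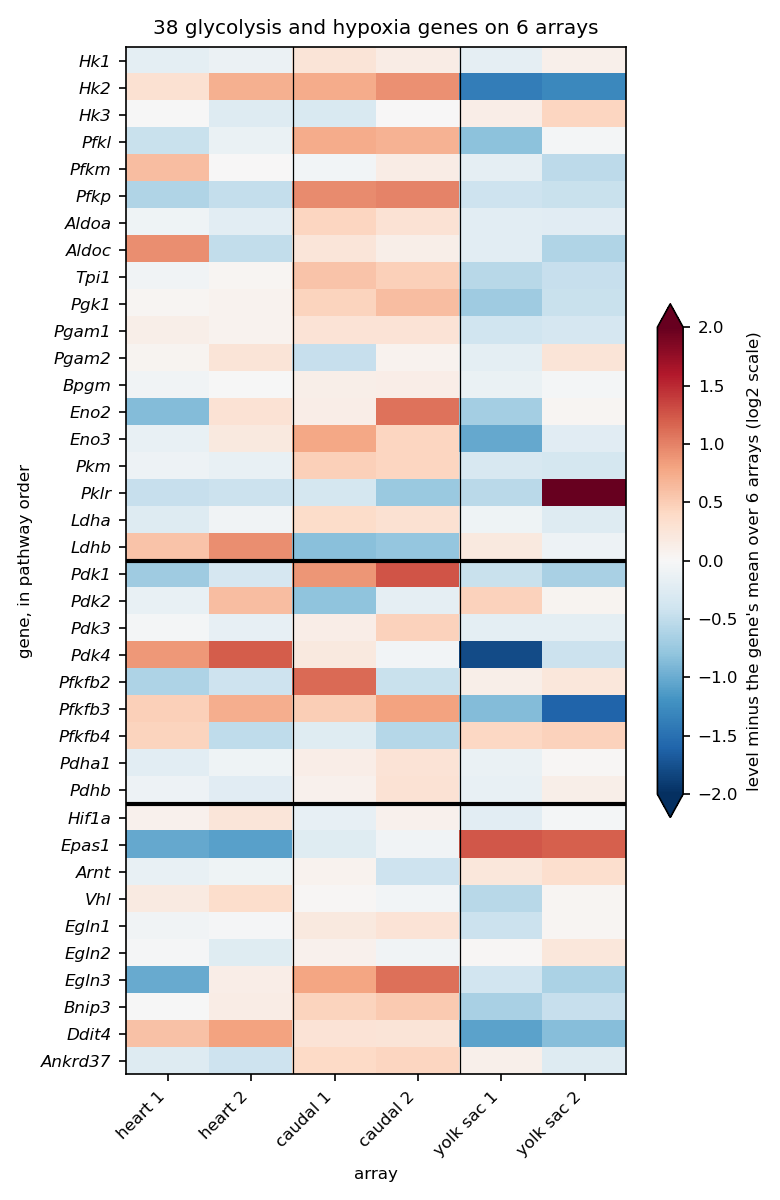
Level of each of the 38 members on each of the 6 arrays, as the difference from the mean of that gene over the arrays (colour, log2 scale, from blue below to red above); black lines separate enzymes, control genes and hypoxia genes. The 2 caudal columns are red for most enzymes and blue for Ldhb, and Epas1 is reddest in the yolk sac columns.

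Each pair of sources was tested with limma over all 18193 genes, and a gene was called where its p, adjusted by Benjamini-Hochberg, was under 0.05. In caudal cells against yolk sac cells, 9 of 38 members were higher (23.7%) where 4.22% of all genes were, and 1 was lower (2.63%) where 4.86% were. Against heart cells, 3 members were lower in heart cells (7.89%; 2.65% of all genes) and 1 was higher (2.63%; 2.86%). Heart cells against yolk sac cells gave 4 higher (10.5%; 5.14%) and 1 lower (2.63%; 6.67%). The median difference over the members was 0.50 for caudal minus yolk sac (0.02 over all genes), -0.33 for heart minus caudal (-0.08) and 0.08 for heart minus yolk sac (-0.06). The shares of all genes include dim genes, whose mean did not exceed the bacterial control range. With dim genes left out, 12 of 36 members and 899 of 12648 genes were higher in caudal than in yolk sac cells. The comparisons share arrays, so their calls are not separate evidence. With 2 arrays per source the count of members higher in caudal than in yolk sac cells was thin. It fell when either caudal array or yolk sac array 1 was left out, and the count over all genes fell as well. In such fits the lone array is assumed to vary like the other groups. The member list was assembled with results of these data known.

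**Figure D3:**
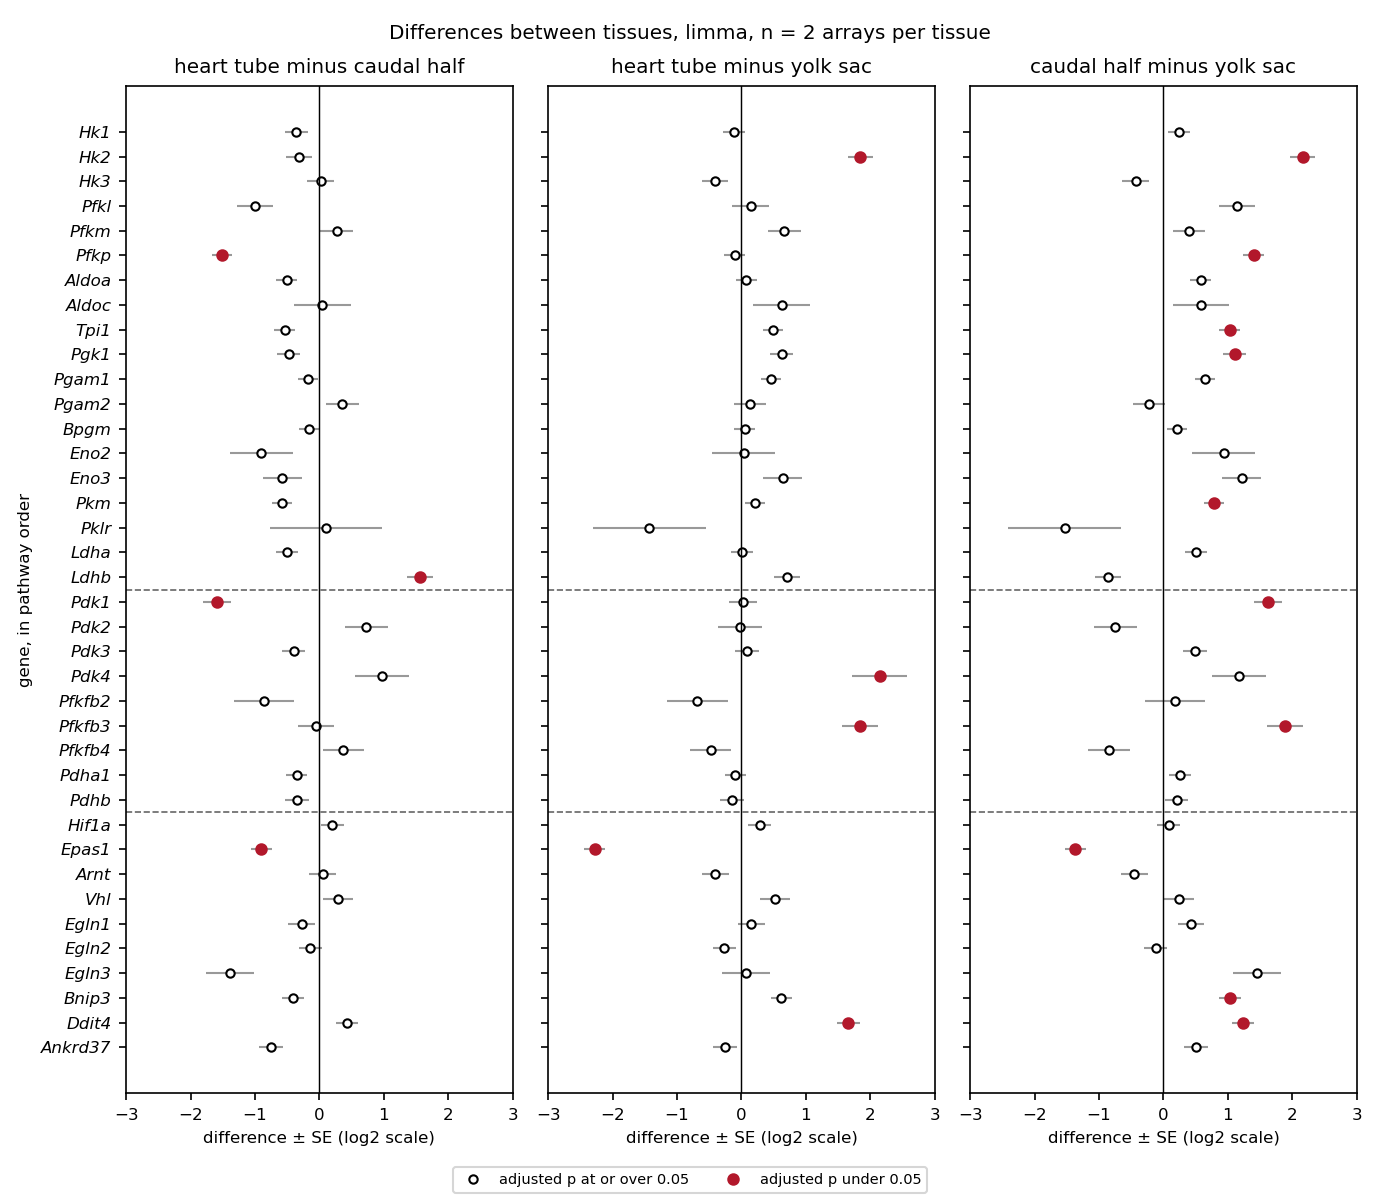
Difference between tissues for each member (horizontal axis, log2 scale, point with SE) in the 3 comparisons, with members in pathway order from top to bottom. Filled red points passed limma's adjusted p of 0.05: 4 for heart minus caudal, 5 for heart minus yolk sac and 10 for caudal minus yolk sac.

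The first step of glycolysis, the phosphorylation of glucose by hexokinase, separated yolk sac cells from both embryonic sources in Hk2. Hk2, the inducible hexokinase of muscle and growing cells, read 7.92 and 8.33 in heart cells, 8.36 and 8.52 in caudal cells, and 6.24 and 6.32 in yolk sac cells. Both yolk sac arrays lay far below the other 4. It was higher than in yolk sac cells by 2.16 ± 0.20 (SE) in caudal cells (a 4.47-fold change on this scale; limma adjusted p = 0.00233) and by 1.85 ± 0.20 in heart cells (0.00255). Both calls held in all 14 alternative analyses. Hk1, the hexokinase of most tissues, read 6.48 to 6.93 on the 6 arrays and passed no test; its difference between caudal and yolk sac cells was 0.24, with a 95% interval from -0.18 to 0.66, and its other probe set had the opposite sign there (-0.17). Hk3 read 5.37 to 6.11 and passed none. Relative to Hk1 on the same array, Hk2 was higher by 1.92 in caudal cells and by 1.96 in heart cells than in yolk sac cells, and between the embryonic tissues this ratio differed by 0.04.

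Phosphofructokinase, which commits sugar to glycolysis, is built from subunits of 3 genes, and these did not move alike. Pfkp, the platelet-type subunit, read 8.22 and 8.26 in caudal cells, 6.68 and 6.79 in heart cells, and 6.85 and 6.83 in yolk sac cells. The caudal arrays stood far above the other 4; heart minus yolk sac was -0.11, with the opposite sign in the other probe sets (0.16 and 1.43), and passed no test. Pfkp was lower in heart cells than in caudal cells (difference -1.51 ± 0.16, limma adjusted p = 0.00412) and higher in caudal cells than in yolk sac cells by 1.40 ± 0.16 (0.00463). The first of these calls was lost with the mean of its 3 probe sets (-0.98, adjusted p = 0.0765), since the other 2 differed less (-0.92 and -0.51). In both comparisons all 3 probe sets had the same sign and 1 passed. Pfkl, the liver-type subunit, read 10.10 and 10.05 in caudal cells, 8.92 and 9.22 in heart cells, and 8.53 and 9.33 in yolk sac cells, so that the caudal arrays were again highest. Its differences of 1.15 from yolk sac cells (limma adjusted p = 0.0571) and from heart cells (means 10.08 and 9.07; 0.111) missed the threshold, while 1 of its other probe sets passed in both comparisons (0.0119 and 0.0422). Pfkm, the muscle-type subunit, read 7.14 and 6.52 in heart cells, 6.46 and 6.67 in caudal cells, and 6.34 and 6.00 in yolk sac cells, and passed no test. The log ratio of Pfkp to Pfkm on an array was lower in heart cells than in caudal cells (difference -1.77).

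In the middle of the pathway and at its ATP-forming steps, Tpi1, Pgk1 and Pkm were highest in caudal cells and lowest in yolk sac cells. Tpi1, which interconverts the triose phosphates, read 11.27 and 11.18 in caudal cells, 10.64 and 10.74 in heart cells, and 10.15 and 10.24 in yolk sac cells. The 3 tissues did not overlap, and caudal cells were above yolk sac cells by 1.03 ± 0.16 (limma adjusted p = 0.0137), in all 3 probe sets. Pgk1, which makes the first ATP of the pathway, followed the same order with 12.38 and 12.55, then 11.97 and 12.00, then 11.23 and 11.49, a difference from yolk sac cells of 1.11 ± 0.18 (0.0150) that all 3 of its probe sets passed. Pkm, the pyruvate kinase of growing and muscle cells, stood at 11.89 and 11.85 in caudal cells, 11.32 and 11.27 in heart cells, and 11.10 and 11.06 in yolk sac cells. Its difference of 0.79 ± 0.16 (0.0286) was the smallest that passed among the members, a 1.73-fold change on this scale. Of these calls, those of Tpi1 and Pgk1 were lost without the first caudal array (adjusted p = 0.0770 and 0.0599), the second (0.0581 and 0.0774) or the first yolk sac array (0.0653 and 0.0695), and that of Pkm without any 1 of the 6 arrays (0.0636 to 0.119) and in a fit on the 4 arrays compared (0.0636). In all these fits the 3 genes stayed higher in caudal cells.

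Aldoa, Pgam1 and Eno3 had the same sign as these without passing. Aldoa, the aldolase of most tissues, read 12.20 and 12.07 in caudal cells against 11.57 and 11.54 in yolk sac cells, a difference of 0.58 (limma adjusted p = 0.0808), and 3 of its 5 probe sets passed on their own. Pgam1, the phosphoglycerate mutase of most tissues, was higher by 0.65 (0.0541), with 12.22 and 12.23 against 11.54 and 11.61. Eno3, the muscle enolase, differed by 1.22 (0.0584), with 6.08 and 5.73 against 4.29 and 5.09. These genes lie close to the threshold, and each passed in some alternatives. Bpgm, which makes the bisphosphoglycerate that tunes haemoglobin in red cells, read 9.00 to 9.27 on all arrays and differed by 0.21, with a 95% interval from -0.17 to 0.59. Of the isoenzymes typical of muscle and brain, Pgam2 (4.82 to 5.54; caudal minus yolk sac -0.23) and Aldoc (4.11 to 5.64) passed no test; the other probe set of Aldoc had the opposite sign for caudal minus yolk sac and passed there (-1.13, 0.0306). Eno2, the neuronal enolase, read 1.96 to 3.92 and was within the span of the bacterial controls on all 6 arrays.

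Pklr, the pyruvate kinase of liver and red cells, was high on 1 array. It read 8.05 on the second yolk sac array and 4.98 on the first, with 5.07 and 5.10 in heart cells and 5.18 and 4.78 in caudal cells. Without the first yolk sac array its difference from yolk sac cells was -2.97 in heart cells (limma adjusted p = 0.00426) and -3.07 in caudal cells (0.00718), whereas with all arrays neither passed (0.359 and 0.354). Of its other 2 probe sets, 1 had the second yolk sac array at 6.09 and the first at 5.25 and passed for heart minus yolk sac (-1.65, 0.0409), and the other had 5.01 and 4.67 and passed none. Among the erythroid markers, Alas2 read 6.19 on the second yolk sac array and 5.65 on the first, Klf1 4.90 and 4.08, and Slc4a1 7.05 and 7.49; the part of red cells in this result was not tested.

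The last step, the exchange of pyruvate and lactate, differed between its 2 subunit genes. Ldhb, which favours the use of lactate and is typical of the heart, read 8.90 and 9.26 in heart cells, 7.49 and 7.56 in caudal cells, and 8.53 and 8.23 in yolk sac cells. In this probe set the 3 sources did not overlap, and caudal cells were lowest. Heart cells exceeded caudal cells by 1.56 ± 0.20 (a 2.94-fold change; limma adjusted p = 0.00897), and all 4 probe sets passed; the call was lost without the second heart tube array (0.0622) or the first caudal array (0.0641). Against yolk sac cells the chosen probe set missed the threshold (0.70, 0.0768), while the other 3 passed at 1.25 to 1.41. For caudal minus yolk sac the probe sets disagreed, with -0.85 in the chosen one (0.0501) and -0.09 to 0.14 in the others, so that no order between these 2 sources can be given for Ldhb. Ldha, the subunit that favours lactate production and a classical HIF target, read 12.48 and 12.41 in caudal cells, 11.85 and 12.04 in heart cells, and 12.02 and 11.85 in yolk sac cells. The caudal arrays were highest, but its differences of -0.50 for heart minus caudal (0.177) and 0.51 for caudal minus yolk sac (0.129) did not pass. On the same array, the ratio of Ldhb to Ldha was higher in heart cells by 2.06 than in caudal cells and by 0.69 than in yolk sac cells.

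**Figure D4:**
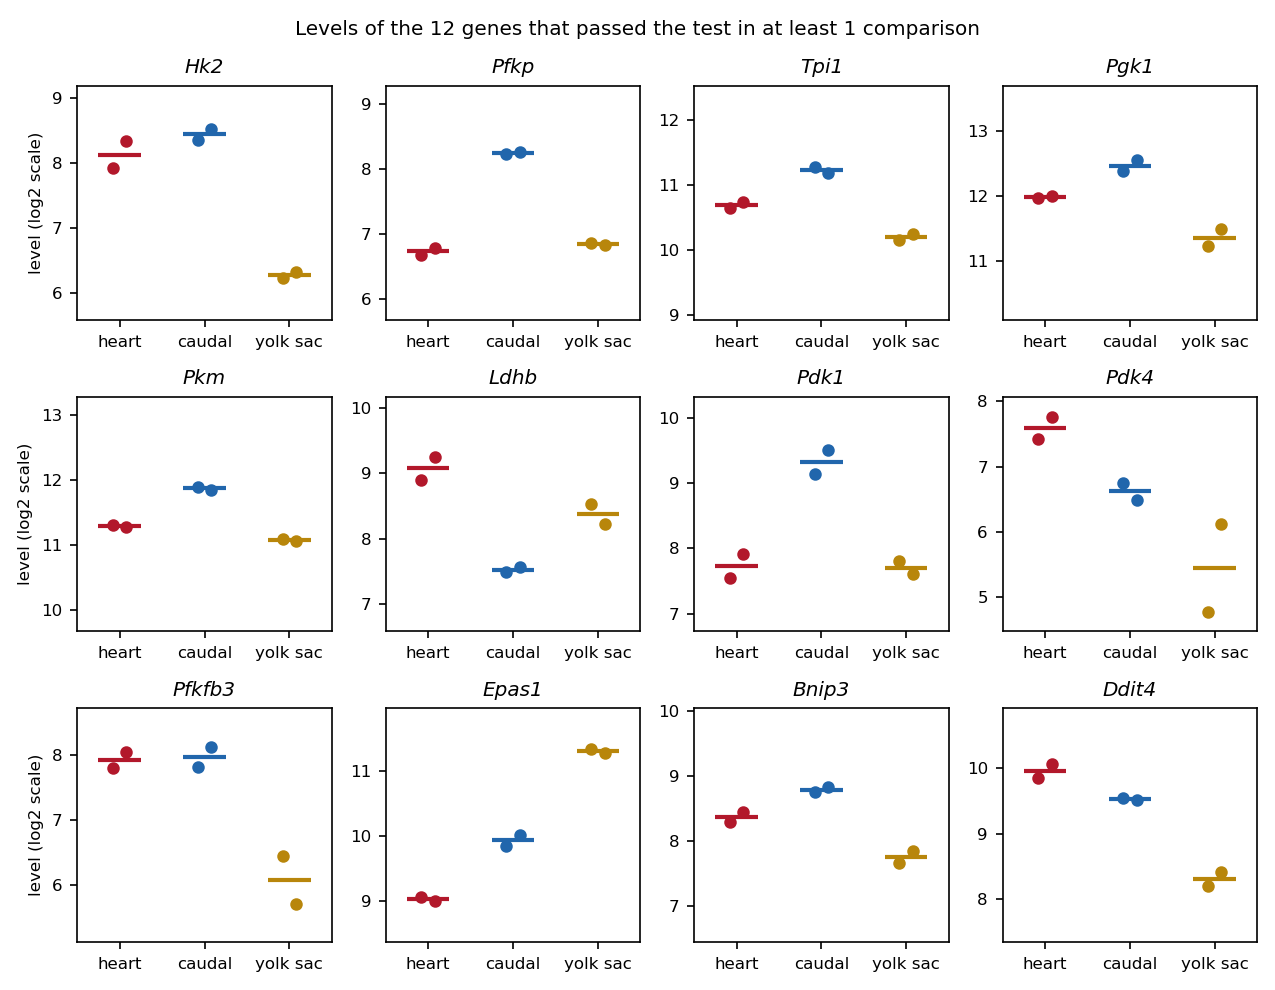
Level on each array (points, log2 scale) and mean (bar) in heart, caudal and yolk sac cells for the 12 members that passed limma's test in at least 1 comparison; each panel spans the same range of 3.6 units around its own centre. Pfkp and Pdk1 are high in caudal cells alone, Hk2, Pfkfb3 and Ddit4 are low in yolk sac cells alone, and Epas1 is lowest in heart and highest in yolk sac cells.

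Control of pyruvate entry and of phosphofructokinase differed by isoenzyme as well. Pyruvate dehydrogenase kinases switch off the complex that feeds pyruvate to mitochondria, and Pdk1 is the one best known as a HIF target. Pdk1 read 9.14 and 9.51 in caudal cells, 7.55 and 7.91 in heart cells, and 7.81 and 7.60 in yolk sac cells. Caudal cells stood above both others, by 1.62 ± 0.22 against yolk sac cells (limma adjusted p = 0.00822), of which 2 of 4 probe sets passed, and heart cells were below them (difference -1.60 ± 0.22, 0.0110), a call that all 4 probe sets passed and that was lost without the first heart tube array (0.0761) or the second caudal array (0.0583). Heart minus yolk sac was 0.02 for Pdk1, and 1 other probe set gave 0.78 there (0.0355). Pdk4, a kinase induced by fatty acids and fasting, had another order, with 7.42 and 7.77 in heart cells, 6.75 and 6.49 in caudal cells, and 4.77 and 6.12 in yolk sac cells. It was higher in heart cells than in yolk sac cells by 2.15 ± 0.42 (0.0232), not passing without the first (0.0857) or second heart tube array (0.121), and its difference from caudal cells (0.97) did not pass (0.277). Relative to Pdk1 on the same array, Pdk4 was higher in heart cells than in caudal cells by 2.57. Pdk3 (7.33 to 7.99) and Pdk2 (2.94 to 4.36, within the bacterial range on 4 arrays) passed no test.

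The PFKFB enzymes set the level of the regulatory fructose bisphosphate that activates phosphofructokinase. Pfkfb3, the form with the strongest kinase activity and a known driver of vessel sprouting, read 7.79 and 8.04 in heart cells, 7.81 and 8.13 in caudal cells, and 6.45 and 5.71 in yolk sac cells. It was lower in yolk sac cells than in both: caudal cells were higher by 1.89 ± 0.28 (limma adjusted p = 0.0113) and heart cells by 1.84 ± 0.28 (0.00919), in both probe sets. The embryonic tissues differed by -0.05, with a 95% interval from -0.72 to 0.62. The caudal call was lost without the first (0.0503) or second caudal array (0.0672), and the heart call without the second heart tube array (0.0623). Pfkfb2 had 6.87 and 5.30 in caudal cells and 5.11 to 5.96 elsewhere, and its fitted difference of -0.86 for heart minus caudal passed only without the second caudal array (-1.65, 0.0275). Pfkfb4 (4.22 to 5.25) passed no test. The subunit genes of the pyruvate dehydrogenase enzyme itself, Pdha1 (8.22 to 8.70) and Pdhb (9.81 to 10.32), passed none either, and their differences for caudal minus yolk sac were 0.26 and 0.20.

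Among the HIF subunits, the alpha subunits differed in profile. Epas1, which encodes the alpha subunit enriched in endothelium, read 11.34 and 11.28 in yolk sac cells, 9.86 and 10.02 in caudal cells, and 9.07 and 9.00 in heart cells. The 3 tissues were fully separated, and all 3 comparisons passed: the difference was -2.27 ± 0.16 for heart minus yolk sac (limma adjusted p = 0.000558), -1.37 ± 0.16 for caudal minus yolk sac (0.00527) and -0.90 ± 0.16 for heart minus caudal (0.0288). Both probe sets passed each time. Of the 10 endothelial markers, 4 were lower in heart than in caudal cells and 6 lower than in yolk sac cells, with median differences of -0.77 and -0.87, and 1 was higher and 1 lower in caudal than in yolk sac cells; their part in the result was not tested. The calls against yolk sac cells held in all 14 alternatives, and the third was lost without either heart tube array (0.136 and 0.152) or either caudal array (0.0949 and 0.117). Hif1a, the alpha subunit found in nearly all cells, read 10.04 to 10.49 on the 6 arrays and passed no test; its largest difference, heart minus yolk sac, was 0.28, with a 95% interval from -0.15 to 0.72. Relative to Hif1a on the same array, Epas1 was lower in heart cells than in yolk sac cells (difference -2.56). Arnt, the shared beta subunit, read 8.99 to 9.74 and passed none.

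Of the oxygen sensors none passed in limma, while Bnip3 and Ddit4 passed among the 3 measured response genes. The prolyl hydroxylases mark HIF for degradation, to which the product of Vhl then directs it. Egln3, the hydroxylase most strongly induced by hypoxia, read 7.65 and 7.96 in caudal cells, 5.85 and 7.0 in heart cells, and 6.48 and 6.22 in yolk sac cells. The caudal arrays were highest, but the differences of 1.45 ± 0.37 from yolk sac cells (limma adjusted p = 0.0637) and -1.38 ± 0.37 for heart minus caudal (0.0992) did not pass, and passed without single heart tube arrays (1.45, 0.0218 without either; -1.96, 0.0279 without the second). Egln1 (9.08 to 9.79), Egln2 (8.95 to 9.43) and Vhl (7.51 to 8.42) passed no test.

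Bnip3, which directs the removal of mitochondria, read 8.75 and 8.82 in caudal cells, 8.29 and 8.45 in heart cells, and 7.66 and 7.84 in yolk sac cells. Each tissue kept apart from the others, and caudal cells were above yolk sac cells by 1.03 ± 0.17 (limma adjusted p = 0.0160), a call lost without the first (0.0718) or second caudal array (0.0777) or the first yolk sac array (0.0746). Ddit4, an inhibitor of the growth kinase mTOR that hypoxia and other stresses induce, was highest in heart cells, with 9.85 and 10.07, then 9.54 and 9.52 in caudal cells and 8.19 and 8.41 in yolk sac cells. It exceeded yolk sac cells by 1.66 ± 0.18 in heart cells (0.00239), held in all 14 alternatives, and by 1.23 ± 0.18 in caudal cells (0.0103), lost without the first (0.0598) or second caudal array (0.0540) or the first yolk sac array (0.0526). Between the embryonic tissues it did not pass (0.43, 0.249). Ankrd37, a HIF target of little known function, read 6.81 and 6.83 in caudal cells, 6.15 and 5.99 in heart cells, and 6.50 and 6.14 in yolk sac cells. Its caudal arrays were highest, and its difference of -0.75 for heart minus caudal did not pass (0.0825).

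Other genes of the pathway were taken from lists outside the members. Of 8 genes of glucose and lactate transport, 1 was higher and 2 lower in heart cells than in caudal cells, 1 higher and 3 lower than in yolk sac cells, and 1 was higher in caudal cells than in yolk sac cells (median differences -0.56, -0.22 and 0.05). Of all genes, 2.65% to 6.67% were called in each direction of a comparison. The glucose transporter gene Slc2a1 read 11.25 and 11.05 in heart cells, 12.49 and 12.52 in caudal cells, and 12.20 and 12.18 in yolk sac cells, and passed in both comparisons with heart cells (-1.36 and -1.04). Slc2a3, a transporter of high affinity, was also lower in heart cells, with differences of -1.67 from caudal and -2.47 from yolk sac cells. Yolk sac cells were thus not low in these 2 transporters, unlike in Hk2 and Pfkfb3. Slc16a3, which exports lactate, was higher in caudal cells than in yolk sac cells by 2.17 ± 0.30 (limma adjusted p = 0.00939), whereas Slc16a1, another carrier of lactate, was lower in heart cells than in yolk sac cells (-1.58). Slc16a7, a high-affinity carrier of pyruvate and lactate, read 4.73 and 5.13 in heart cells and 1.67 to 1.91 elsewhere, within the span of the bacterial controls.

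Of 25 other HIF target genes, 4 were higher and 1 lower in caudal cells than in yolk sac cells, 1 higher and 2 lower in heart cells than in caudal cells, and 5 higher and 3 lower in heart cells than in yolk sac cells (median differences 0.09, -0.29 and 0.00). The shares of all genes called higher and lower were 4.22% and 4.86%, 2.86% and 2.65%, and 5.14% and 6.67% in the same order. Stc2, a secreted glycoprotein of calcium and phosphate balance, read 7.57 and 7.46 in caudal cells against 5.56 and 5.38 in heart cells and 5.23 and 5.26 in yolk sac cells, so that it was high in caudal cells alone, as were Pfkp and Pdk1. Vldlr, a lipoprotein receptor, was higher in caudal cells than in yolk sac cells by 2.63 ± 0.16. In heart cells Vldlr was lower than in caudal cells (-1.58) and higher than in yolk sac cells (1.05). Pgm1 was highest in heart cells, by 0.84 over caudal cells and by 1.32 over yolk sac cells. Mif, a cytokine, was higher in caudal cells than in yolk sac cells by 1.40. Lox, a collagen cross-linking enzyme, went the other way, at -1.94. Its mean levels in caudal and heart cells were within the span of the bacterial controls. Of 12 genes of HIF control, Cited2, which competes with HIF for its coactivator, and Hif3a, an alpha subunit with inhibitory forms, were higher in heart cells than in caudal cells (1.39 and 1.51) and than in yolk sac cells (1.50 and 1.08). None of the 12 passed between caudal and yolk sac cells in limma, where 1 had an unadjusted p under 0.05.

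The routes that leave glycolysis are read against the 2.65% to 6.67% of all genes called in each direction, a share from which counts this small cannot be told apart. Of 22 genes of the pyruvate dehydrogenase complex and the citrate cycle, limma called 0 in each comparison; 2, 4 and 3 had an unadjusted p under 0.05 for heart minus caudal, heart minus yolk sac and caudal minus yolk sac, and the median differences were -0.06, -0.06 and 0.07. Of 7 genes of gluconeogenesis 0 were called as well (2, 2 and 1 with an unadjusted p under 0.05), and G6pc, Fbp1 and Pck1 were within the span of the bacterial controls in all tissues. Of 9 measured pentose phosphate genes, only H6pd, the form of the first enzyme in the endoplasmic reticulum, was called, at -1.83 for heart minus yolk sac and -1.74 for caudal minus yolk sac. Of 10 further measured isoenzyme genes, Hkdc1, a hexokinase-like gene, gave -2.08 for heart minus yolk sac and -1.63 for caudal minus yolk sac. It was at 2.72 on both heart tube arrays and at 3.50 and 2.85 in caudal cells, within the control range. Ldhd, a lactate dehydrogenase of the other lactate form, was higher in caudal cells than in yolk sac cells by 1.16 (limma adjusted p = 0.0435). Its yolk sac arrays read 3.42 and 3.99, within the control range.

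Several of these results move together with markers of other cells. Yolk sac cells, where Hk2, Pfkfb3, Ddit4 and Bnip3 were low and Epas1 and Hkdc1 high, were also those where 9 of the 10 visceral endoderm markers were higher than in either embryonic tissue and where 3 of the 9 erythroid markers, the embryonic globin genes Hbb-bh1, Hba-x and Hbb-y, were higher than in both. Slc4a1 was higher there than in heart cells and Alas2 than in caudal cells, while the erythroid factor gene Klf1 was lower there than in heart cells (heart minus yolk sac 2.14). Heart cells, where Ldhb and Pdk4 were high, had 6 of the 13 cardiomyocyte markers above caudal cells and 8 above yolk sac cells. Of the 10 mesenchymal markers, 6 were higher and 0 lower in heart than in caudal cells, 4 higher and 4 lower in heart than in yolk sac cells, and 2 higher (Pdgfra and Prrx1) and 5 lower in caudal than in yolk sac cells. Caudal cells, where most enzymes were highest, had the neural markers Sox2 and Nes above both other sources: Sox2 differed by 3.61 from yolk sac cells (-5.36 for heart minus caudal), and Nes by 0.77 (-0.84). Tubb3, another of the 7 neural markers, was instead higher in heart cells than in caudal cells (4.29) and yolk sac cells (4.88). Sox1, Pax6, Pax3 and Hes5 were called in no comparison. Of the 7 epithelial markers, 5 were higher in caudal than in heart cells, 6 higher in yolk sac than in heart cells and 2 higher in yolk sac than in caudal cells, and 3 of the 9 erythroid markers were higher in caudal than in heart cells. Caudal cells also had the smallest 3' to 5' gap of the Gapdh controls. The part of these other cells and of RNA quality in the results was not tested.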

How the data were processed

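Per the submitters' processing notes, the authors summarised probe sets by RMA (affy); the deposited values are a signal per probe set, back-transformed from a log. Other settings are not stated. Deposited signals reached 2172540, above the scanner limit of 65535, and their natural log ran from 0.90 to 14.59, so the natural log was read as the RMA log2 value. The base is not stated.

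The table held 45101 probe sets, 64 of them controls. Of the others, 34945 carried 1 symbol in the platform annotation. Each gene was represented by its probe set with the highest mean over the 6 arrays. A mean per source was estimated from all arrays (lmFit and eBayes of limma 3.58.1, R 4.3.3), with 3 residual and 3.48 prior degrees of freedom, and tested two-sided with Benjamini-Hochberg adjustment. The number of arrays limits the precision, and the median SE of a difference was 0.21. Single probe sets were tested in a fit over all probe sets with 1 symbol. The script was tested on simulated data.

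Members and lists were chosen with earlier results of these data known. All 41 members are named if measured, and per list up to 4 called genes in each comparison with the smallest adjusted p are eligible. Alternatives were the probe set rule, dim genes, scaling, the prior, the arrays fitted and the replicate number.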

Additional observations from a re-analysis of the deposited data

How the results depend on the processing

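Over 14 alternatives, 1587 refitted differences of members gave 35 lost calls, 51 gained calls and 0 reversals of a called difference; 46 differences that passed in neither fit changed sign. A prior with trend and robust estimation moved the counts most. Members lower in heart cells than in caudal cells then numbered 9 (3 before), where all genes went from 482 to 681. Members higher in heart cells than in yolk sac cells numbered 9 (4), where all genes went from 936 to 1321. Members higher in caudal cells than in yolk sac cells numbered 15 (9), with all genes from 767 to 1214. Members lower there numbered 2 (1), with all genes from 885 to 1159. This last count of members was also 2 without dim genes and with quantile normalization, where Ldhb joined Epas1. Leaving out single arrays gave 3 to 11 members higher and 1 to 2 lower in caudal cells than in yolk sac cells, 0 to 1 higher and 1 to 4 lower in heart cells than in caudal cells, and 3 to 4 higher and 1 to 2 lower in heart cells than in yolk sac cells. Over all genes, 222 were higher in caudal cells than in yolk sac cells without the first caudal array. Replicate differences showed almost no correlation between sources over genes (r = 0.05, -0.01 and 0.02). This does not show whether samples with the same replicate number came from the same embryos. With the replicate number as a block, members lower in heart than in caudal cells went from 3 to 2. Epas1 missed there (limma adjusted p = 0.0561). Between caudal and yolk sac cells Pkm missed (0.0507) while Eno2 passed (0.0480), leaving 9 higher in caudal cells. Differences near the median SE of 0.21 were below what 2 arrays per tissue can show. Probe sets ending in _s_at or _x_at changed no call when left out.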

Other observations

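The array's control probe sets for Gapdh, the glycolytic enzyme between triose phosphate isomerase and phosphoglycerate kinase, were not part of any test. Its 3' probe set read 12.91 and 13.00 in heart cells, 13.18 and 13.21 in caudal cells, and 12.98 and 12.93 in yolk sac cells. The middle probe set read 11.67 and 11.59, 12.15 and 12.16, and 11.52 and 11.57 in the same order, and the 5' probe set 11.02 on both heart tube arrays, 11.51 and 11.64 in caudal cells, and 10.94 and 11.12 in yolk sac cells. The caudal arrays were the highest of the 6 in all 3 probe sets, and by a smaller margin in the 3' one.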
